A study of Mus musculus with 12 samples.

Results

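The 44 genes described here carry the machinery of cell division and were taken from a list of proliferation genes, matched by symbol to the gene identifiers of the series. Of these, 21 act at the G1/S transition and in DNA replication, and 23 act in G2 and mitosis (G2/M). All 44 passed the filter on low counts, among 15090 genes tested of 55385 listed. They were measured by RNA sequencing in primary hepatocytes, the parenchymal cells of the liver, freshly isolated from 3 mice. All cells were cultured on collagen in Williams' E medium. The supplements were fetal bovine serum, glutamine, penicillin and streptomycin, dexamethasone and an insulin, transferrin and selenium mix, and every culture received small interfering RNA (siRNA) for 48 h. The siRNA was a control (siCon), targeted Hnf4a (siHnf4a), targeted Cebpa (siCebpa) or was the combination of the Hnf4a and Cebpa siRNAs (the double knockdown), with 3 libraries in each of the 4 groups. The titles number the hepatocyte preparations 1 to 3 in every group and the design text numbers the mice likewise, so the number was read as the mouse, with 1 library per mouse and group, 12 in all. Strain, sex and age of the mice, and how many cultures stand behind a library, are not stated in the labels used here.

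The cell cycle is driven by cyclins, which activate cyclin-dependent kinases. Cyclin D and cyclin E release E2F transcription factors from the retinoblastoma proteins, and E2F targets such as the Mcm helicase genes and the enzymes of nucleotide synthesis prepare DNA replication. Genes of G2 and mitosis are held down in resting cells by the DREAM complex and are induced later through CHR elements, which bind B-MYB and FOXM1 complexes, and CCAAT boxes, which bind NF-Y. Hepatocytes of the adult liver are mostly quiescent and can re-enter the cycle after injury. HNF4A and C/EBPα are transcription factors of differentiated hepatocytes, and both are known as restraints on hepatocyte proliferation in vivo.

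Promoter sequences were available in the RefSeq table (GRCm38.p6) for 35 of the 44 genes, 17 of G1/S and 18 of G2/M, and the 250 bases before each start were searched on both strands. The 5 stretches printed here show examples of the words searched: E2F words in Mcm6, whose product is a helicase subunit, and CHR and CCAAT words in the mitotic genes Cdc20, Cdk1, Kif11 and Top2a. Each is given 5′ to 3′ on the strand of its gene and ends before the annotated gene body, and capitals mark the matched words (CCAAT or its complement ATTGG; the CHR word TTTGAA or its complement TTCAAA; the E2F words TTTGGCGC and TTTCGCGC, the latter as GCGCGAAA). In Mcm6 the first capital run holds overlapping E2F words.
Mcm6, chr1:128359706-128359825, minus strand: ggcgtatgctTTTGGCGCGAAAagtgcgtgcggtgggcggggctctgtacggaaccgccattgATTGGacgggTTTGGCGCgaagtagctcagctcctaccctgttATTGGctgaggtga
Cdc20, chr4:118437353-118437463, minus strand: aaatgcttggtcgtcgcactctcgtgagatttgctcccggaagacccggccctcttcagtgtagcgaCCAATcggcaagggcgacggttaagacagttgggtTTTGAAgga
Cdk1, chr10:69352939-69353032, minus strand: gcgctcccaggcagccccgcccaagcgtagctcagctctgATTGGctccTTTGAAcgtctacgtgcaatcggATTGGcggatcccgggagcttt
Kif11, chr19:37376262-37376381, plus strand: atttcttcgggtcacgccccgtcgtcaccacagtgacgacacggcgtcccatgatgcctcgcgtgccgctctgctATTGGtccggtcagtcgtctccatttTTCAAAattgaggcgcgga
Top2a, chr11:99024190-99024309, minus strand: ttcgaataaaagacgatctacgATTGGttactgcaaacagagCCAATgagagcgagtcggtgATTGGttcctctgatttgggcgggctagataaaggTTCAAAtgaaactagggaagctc

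A CCAAT word lay in 16 of the 18 G2/M promoters (88.89%) and in 9 of the 17 G1/S promoters (52.94%), against 34.46% of 27025 promoters of the same length. At least 2 of them lay in 10 G2/M promoters (55.56%) and in 5 of G1/S (29.41%), against 10.54% of all. The CHR word TTTGAA was found in 7 G2/M promoters (38.89%) and 2 of G1/S (11.76%), against 16.27% of all. An E2F word (TTTCCCGC, TTTGGCGC or TTTCGCGC) was found in 4 G1/S promoters (23.53%), those of Cdc6, Mcm5, Mcm6 and Mcm7, and in 1 of G2/M (Cdk1, 5.56%), against 1.59% of all. The HNF4A-type word CAAAGTCC was found in Mcm2 and Bub1 only, against 1.22% of all promoters, and the C/EBP-type word TTGCGCAA in none of the 35, against 0.17%. A match is a description of letters in these windows and not a measured binding site.

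The siRNA targets were read first. Hnf4a, the nuclear receptor, was at 230 ± 78.0 CPM (counts scaled to a common library size; SD, n = 3 mice) in siCon, 54.1 ± 6.80 with siHnf4a, 211 ± 74.0 with siCebpa and 35.9 ± 3.67 with both siRNAs. Cebpa, the leucine zipper factor, was at 193 ± 16.2 CPM in siCon, 214 ± 17.0 with siHnf4a, 30.0 ± 3.81 with siCebpa and 94.2 ± 13.1 with both siRNAs. The targeted transcript was thus low in each group named for it, and Cebpa was reduced less in the double knockdown than in siCebpa. Libraries held 22453445 to 25008195 estimated counts.

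The mice differed widely in the level of these genes. Summed over the 23 G2/M genes, mouse 1 stood at 70.9 CPM in siCon, mouse 2 at 312 and mouse 3 at 327. All 23 G2/M genes and 18 of the 21 G1/S genes (not Ccne1, Cdkn1a and E2f8) were lower in mouse 1 than in mice 2 and 3 in every group, against 13.7% of all genes tested. The median G2/M gene was 4.07-fold higher in mouse 2 and 5.42-fold higher in mouse 3 than in mouse 1, and the median G1/S gene 1.37-fold and 1.86-fold higher. The log2 ratio of the median gene of the series was 0.01 in both. Comparisons between groups were made with the mouse as a block, because each mouse was read as giving 1 library to each group. A lower summed level in these cultures can mean fewer cycling cells or less RNA per cycling cell, which cannot be told apart in bulk RNA.

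**Figure D1:**
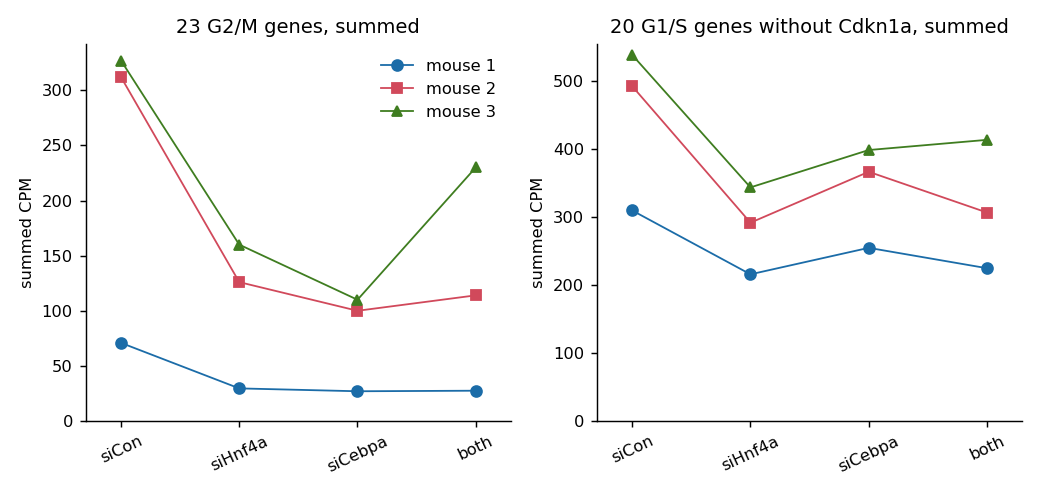
Summed CPM of the 23 G2/M genes (left) and of the 20 G1/S genes other than Cdkn1a (right) in each library, with 1 line per mouse across the 4 groups ("both" is the double knockdown). Mouse 1 lies lowest throughout, and within every mouse each knockdown lies below siCon in both panels.

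Each knockdown lowered nearly the whole G2/M set. In siHnf4a against siCon, 21 of 23 fell and 0 rose (edgeR's quasi-likelihood test with Benjamini-Hochberg adjustment over all tested genes, threshold 0.05), where 15.5% of all genes tested fell and 14.5% rose. In siCebpa against siCon all 23 fell, where 8.11% of all genes fell and 8.73% rose. In the double knockdown 22 of 23 fell, where 15.6% of all genes fell and 13.8% rose. The median log2 fold change of the set was -1.22, -1.51 and -1.04, beside -0.00, -0.01 and -0.00 over all genes. The 3 comparisons share the siCon libraries. Within mice the direction was uniform: each of the 23 genes lay below siCon in all 3 mice in all 3 comparisons, as did 28.7%, 25.9% and 28.5% of all genes in siHnf4a, siCebpa and the double knockdown. Some of these differences were very small. In mouse 3 the double knockdown and siCon were at 7.17 and 7.19 CPM for Nusap1 and at 8.03 and 8.46 CPM for Birc5. Relative to siCon of its own mouse, the summed G2/M level was 41.8%, 40.3% and 48.9% in siHnf4a (mice 1 to 3) and 38.1%, 32.1% and 33.5% in siCebpa. In the double knockdown it was 38.8%, 36.4% and 70.2%, highest in mouse 3. Without the mouse block the edgeR test called 0 of 23 in each comparison, with 1, 4 and 0 at an unadjusted p under 0.05. Without mouse 2 the counts were 12, 11 and 3, and without the double-knockdown library of mouse 2 the count for the double knockdown was 14.

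Among the mitotic cyclins and kinases, Ccnb1 changed most. Its product, cyclin B1, activates CDK1 at the entry into mitosis. In mice 1, 2 and 3 Ccnb1 stood at 2.42, 9.80 and 11.3 CPM in siCon, 0.358, 2.22 and 2.84 with siHnf4a, 0.432, 2.02 and 2.48 with siCebpa and 0.517, 1.99 and 3.87 with both siRNAs. Every treated library lay below siCon of its mouse, although the siCon library of mouse 1 overlapped the treated libraries of mice 2 and 3. The log2 fold changes were -2.20 ± 0.20 (SE, adjusted p = 3.06e-05) with siHnf4a, -2.30 ± 0.20 (0.00016) with siCebpa and -1.97 ± 0.19 (5.09e-05) with both siRNAs. Ccnb2, a second B-type cyclin, fell by 1.22, 1.94 and 0.89 on the log2 scale in the same order. Ccna2, the cyclin of S phase and G2, fell by 1.22, 1.45 and 0.94. Cdk1, the kinase that these cyclins activate, went from 2.50, 11.7 and 12.1 CPM in siCon to 1.03, 4.44 and 5.47 with siHnf4a, 0.864, 4.37 and 6.02 with siCebpa and 0.955, 4.15 and 8.25 with both siRNAs. Its log2 fold changes were -1.29, -1.29 and -1.08, and within mice no treated library reached its siCon. Foxm1, the transcription factor of the G2/M programme, fell by 1.44, 1.33 and 1.05. Plk1, the kinase of centrosome maturation and mitotic exit, fell by 1.47, 1.91 and 1.29. The Aurora kinases fell as well, Aurka (spindle poles) by 1.10, 1.30 and 1.00 and Aurkb (the chromosomal passenger complex) by 1.63, 1.24 and 1.45. Birc5, which encodes the passenger subunit survivin, fell by 0.90, 1.20 and 0.72.

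**Figure D2:**
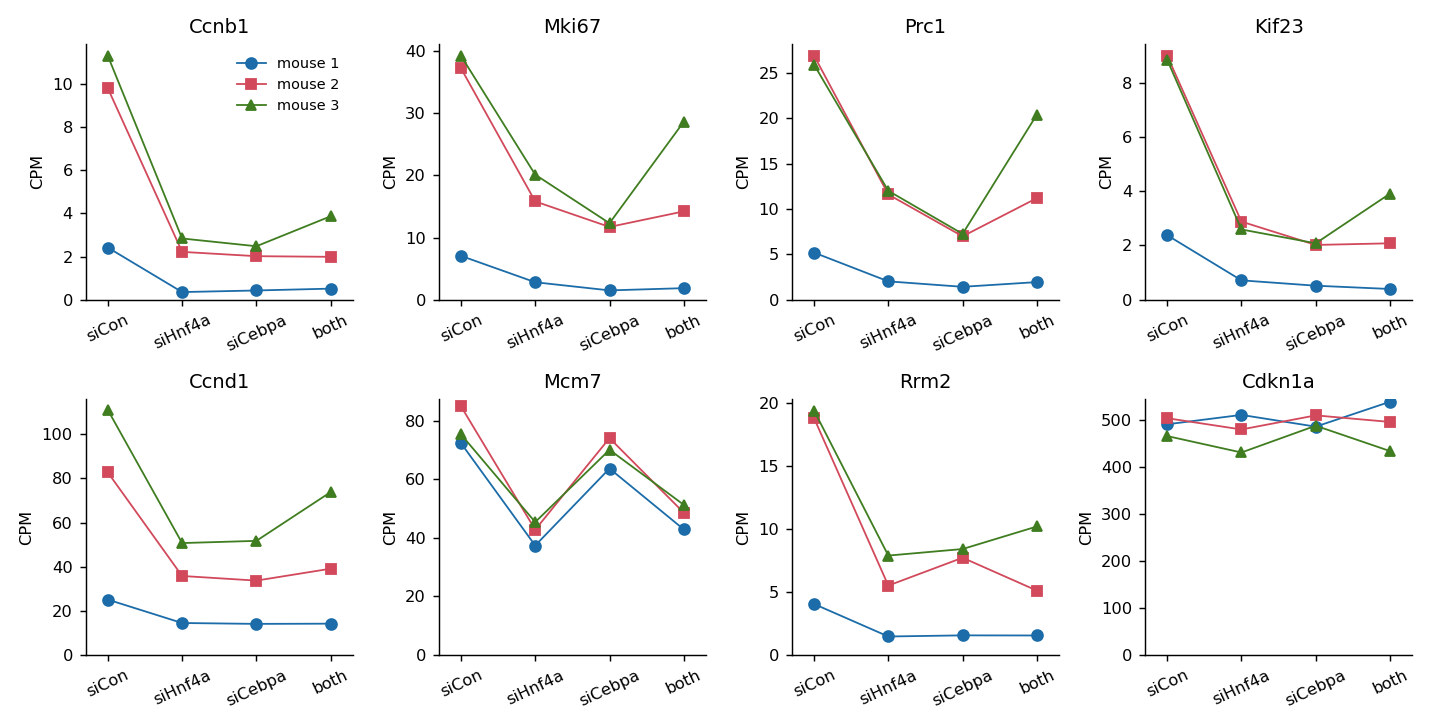
CPM of 4 G2/M genes (top row) and 4 G1/S genes (bottom row) in each library, 1 line per mouse across the 4 groups ("both" is the double knockdown), with axes from 0. The G2/M genes, Ccnd1 and Rrm2 drop in every mouse, Mcm7 drops with the Hnf4a siRNA, and Cdkn1a stays between 431 and 539 CPM.

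Bub1 and Bub1b of the spindle checkpoint, and Cdc20 and Ube2c, which act with the anaphase-promoting complex, fell in each comparison. Bub1, a checkpoint kinase, fell by 1.90, 1.94 and 1.54 on the log2 scale, with standard errors of 0.37, 0.37 and 0.35, and lay between 0.199 and 1.35 CPM in the libraries of mouse 1. Bub1b, which encodes the checkpoint protein BubR1, fell by 1.29, 1.40 and 0.80. Cdc20, the activator of the anaphase-promoting complex that the checkpoint inhibits, fell by 1.13, 1.34 and 1.04. Ube2c, the ubiquitin-conjugating enzyme of that complex, was at 2.98, 22.7 and 23.6 CPM in siCon, 1.47, 9.09 and 10.9 with siHnf4a, 1.12, 5.79 and 7.04 with siCebpa and 1.23, 8.66 and 18.3 with both siRNAs. It fell by 1.18, 1.78 and 0.92, and in mice 2 and 3 the order was siCon, then siHnf4a or the double knockdown, then siCebpa.

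Kinetochore, spindle and cytokinesis genes completed the set. Cenpe, a kinetochore motor, fell by 1.22, 1.62 and 1.13 on the log2 scale, and Cenpf, a kinetochore-associated protein, by 1.28, 2.11 and 1.04. Cenpf was sparse in mouse 1, with 28 estimated counts in siCon, 10 with siHnf4a, 3 with siCebpa and 11 with both siRNAs. Kif11, the motor that separates the spindle poles, fell by 0.90, 1.79 and 0.89, and Tpx2, an activator of Aurora A on the spindle, by 1.00, 1.48 and 1.08. Kif23, a motor of the central spindle needed for cytokinesis, was at 2.38, 8.99 and 8.84 CPM in siCon, 0.716, 2.88 and 2.59 with siHnf4a, 0.519, 2.02 and 2.08 with siCebpa and 0.398, 2.08 and 3.91 with both siRNAs. With log2 fold changes of -1.72 ± 0.24, -2.15 ± 0.25 and -1.78 ± 0.24 (SE), it was second to Ccnb1 among the 23 genes in siCebpa and in the double knockdown. Prc1, which bundles microtubules of the midzone, was at 5.20, 26.9 and 25.9 CPM in siCon, 2.03, 11.6 and 12 with siHnf4a, 1.43, 6.99 and 7.26 with siCebpa and 1.95, 11.2 and 20.4 with both siRNAs, and fell by 1.22, 1.90 and 0.92. Kif20a, another cytokinesis motor, fell in siCebpa (by 1.01) and the double knockdown (by 0.73) and had a log2 fold change of -0.62 ± 0.22 (SE, adjusted p = 0.0581) in siHnf4a. Nusap1, a spindle-associated protein, fell in siCebpa (by 1.51), with log2 fold changes of -0.70 ± 0.28 (adjusted p = 0.0863) in siHnf4a and -0.48 ± 0.28 (0.227) in the double knockdown.

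Mki67 and Top2a are the common markers of cycling cells. Mki67, which encodes the antigen Ki-67, was at 7.06, 37.2 and 39.2 CPM in siCon, 2.82, 15.8 and 20.1 with siHnf4a, 1.51, 11.7 and 12.3 with siCebpa and 1.87, 14.2 and 28.6 with both siRNAs. It fell by 1.18 ± 0.21, 1.82 ± 0.22 and 1.13 ± 0.21 on the log2 scale (SE; adjusted p = 0.00221, 0.000664 and 0.00276). Top2a, the topoisomerase that resolves sister chromatids, was at 5.20, 18.3 and 24.2 CPM in siCon, 1.63, 8.72 and 11.7 with siHnf4a, 1.64, 7.63 and 8.32 with siCebpa and 1.55, 7.75 and 14.3 with both siRNAs, and fell by 1.22, 1.48 and 1.17. For both genes the double-knockdown library of mouse 3 was the highest of the treated libraries.

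**Figure D3:**
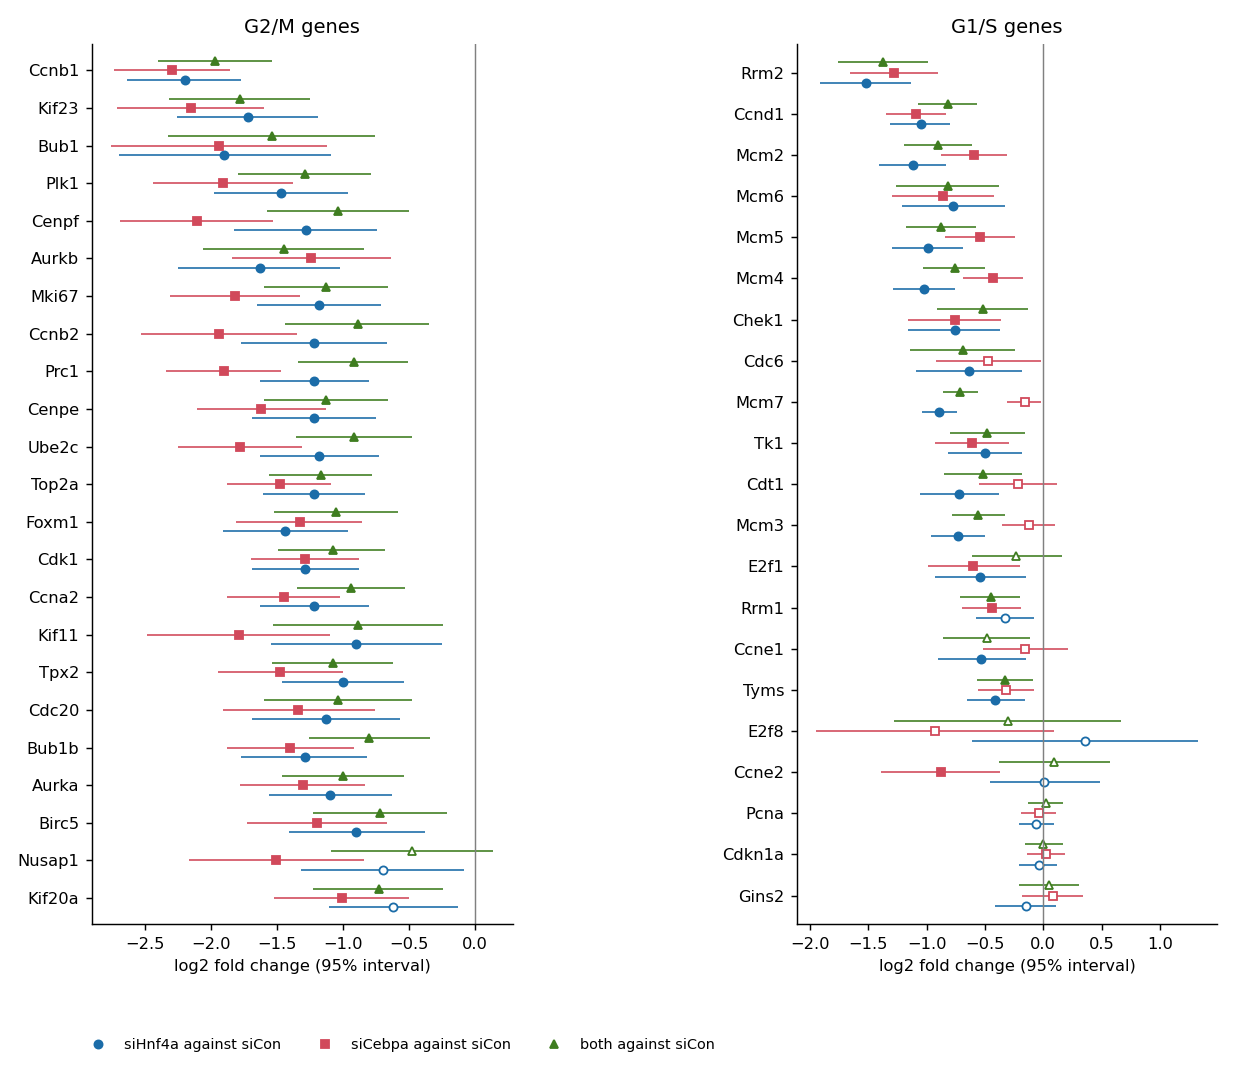
Log2 fold changes of all 44 genes against siCon with 95% intervals (edgeR with mouse as a block), G2/M on the left and G1/S on the right, filled where the adjusted p is under 0.05 ("both" is the double knockdown). All G2/M points lie left of 0, whereas Pcna, Cdkn1a and Gins2 lie around 0.

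The G1/S set moved in the same direction by less. In siHnf4a 15 of 21 genes fell, in siCebpa 11 and in the double knockdown 14, and 0 rose in each, with median log2 fold changes of -0.64, -0.47 and -0.52. Of all genes tested, 15.5%, 8.11% and 15.6% fell and 14.5%, 8.73% and 13.8% rose, in the same order. In all 3 comparisons 8 genes fell: Ccnd1, Chek1, Mcm2, Mcm4, Mcm5, Mcm6, Rrm2 and Tk1. Cdkn1a, E2f8, Gins2 and Pcna passed in none. Within mice, 15, 16 and 15 of the 21 lay below siCon in all 3 mice, as did 28.7%, 25.9% and 28.5% of all genes. Without the mouse block the edgeR test called 2, 0 and 1 of 21 lower, with 5, 1 and 3 at an unadjusted p under 0.05. Without mouse 2 the counts were 7, 2 and 5, and without mouse 3 they were 9 in siHnf4a and 2 in siCebpa. Leaving out single libraries of mice 2 or 3 also moved these counts: to 9 and 8 in siHnf4a without the siCon or siHnf4a library of mouse 2, to 3, 6, 6 and 2 in siCebpa without siCon of mouse 2, siCon of mouse 3, siCebpa of mouse 2 or siCebpa of mouse 3, and to 7, 9, 7 and 9 in the double knockdown without siCon of mouse 2, siCon of mouse 3, the double knockdown of mouse 2 or that of mouse 3.

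Of the regulators of G1, Ccnd1 fell in all 3 comparisons. Its product, cyclin D1, links growth signals to the cycle in hepatocytes. Ccnd1 was at 25.1, 82.7 and 111 CPM in siCon (mice 1 to 3), 14.5, 35.8 and 50.7 with siHnf4a, 14.1, 33.7 and 51.7 with siCebpa and 14.2, 39.1 and 73.8 with both siRNAs. In mouse 1 the 3 treated libraries were nearly equal, and in each mouse all of them lay below siCon. The log2 fold changes were -1.05 ± 0.12 (SE, adjusted p = 0.000106), -1.09 ± 0.12 (0.000328) and -0.82 ± 0.11 (0.000433). The E cyclins, which start S phase with CDK2, did not share a pattern: Ccne1 fell in siHnf4a by 0.53 and Ccne2 in siCebpa by 0.88, while Ccne2 in siHnf4a had a log2 fold change of 0.01 ± 0.22. The activator E2f1 fell in both single knockdowns, by 0.54 in siHnf4a and 0.60 in siCebpa. The repressor E2f8 had log2 fold changes of 0.36, -0.93 and -0.30 with standard errors of 0.44 to 0.46 and passed in no comparison. Chek1, the kinase of the replication checkpoint, fell by 0.76, 0.76 and 0.52.

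Cdkn1a, which encodes the CDK inhibitor p21 and is a p53 target, was the most abundant of the 44 genes and passed the test in no comparison. It was at 491, 504 and 466 CPM in siCon, 511, 480 and 431 with siHnf4a, 486, 510 and 488 with siCebpa and 539, 496 and 434 with both siRNAs. These ranges overlapped, and the 95% intervals of its log2 fold changes were -0.21 to 0.12, -0.14 to 0.19 and -0.16 to 0.17. On the length-normalised scale, Cdkn1a averaged 414 ± 18.7 TPM (the deposited level scaled by transcript length) in siCon. It was followed by Mcm7 at 53.4 ± 5.71, Pcna at 46.7 ± 2.74, Ccnd1 at 31.6 ± 18.8 and Ube2c at 30.4 ± 21.7 TPM, and below Cdkn1a the neighbours in this order overlapped in their SD ranges. The lowest were Kif11 at 1.49 ± 0.958 and Cenpf at 1.36 ± 1.01 TPM.

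The replication licensing genes among the 44 (the Mcm genes, Cdt1 and Cdc6) fell with the Hnf4a siRNA. Some of them fell less or not past the test with the Cebpa siRNA alone. The 6 genes of the Mcm helicase, which is loaded at origins in G1, all fell with the Hnf4a siRNA, alone or with the Cebpa siRNA. Mcm7 was at 72.4, 85.0 and 75.4 CPM in siCon, 37.4, 42.8 and 45.4 with siHnf4a, 63.7, 74.1 and 70.1 with siCebpa and 42.9, 48.6 and 51.3 with both siRNAs. The 6 libraries with the Hnf4a siRNA lay below the 6 without it. The log2 fold change of Mcm7 was -0.89 ± 0.07 (SE, adjusted p = 1.08e-05) with siHnf4a, -0.16 ± 0.07 (0.121) with siCebpa and -0.71 ± 0.07 (4.45e-05) with both siRNAs. Mcm3 was of the same kind, with log2 fold changes of -0.73 ± 0.10, -0.12 ± 0.10 and -0.56 ± 0.10, of which the one in siCebpa did not pass (adjusted p = 0.446). Mcm2 fell by 1.12, 0.59 and 0.90, Mcm4 by 1.02, 0.43 and 0.76 and Mcm5 by 0.99, 0.54 and 0.88. Mcm6 fell by 0.77, 0.86 and 0.82, with no difference between siHnf4a and siCebpa that passed the test (log2 difference 0.09 ± 0.21). The loading factors Cdt1 and Cdc6 fell in siHnf4a (by 0.72 and 0.64) and in the double knockdown (by 0.52 and 0.69). In siCebpa they had log2 fold changes of -0.22 ± 0.15 and -0.47 ± 0.20.

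At the fork, Pcna, the sliding clamp of DNA polymerases, was at 41.5, 41.7 and 45.1 CPM in siCon and between 37.0 and 47.9 CPM in the treated libraries, with 95% intervals of its log2 fold changes of -0.21 to 0.09, -0.19 to 0.11 and -0.13 to 0.17. Gins2, a subunit of the replicative helicase, had log2 fold changes of -0.15, 0.08 and 0.05 and passed in none. Nucleotide synthesis genes fell unevenly. Rrm2, the regulated subunit of ribonucleotide reductase, was at 4.05, 18.8 and 19.4 CPM in siCon, 1.47, 5.51 and 7.89 with siHnf4a, 1.56, 7.72 and 8.41 with siCebpa and 1.55, 5.11 and 10.2 with both siRNAs. It had the lowest log2 fold changes of the G1/S genes, -1.52 ± 0.17, -1.28 ± 0.17 and -1.37 ± 0.17 (adjusted p = 0.000141, 0.00116 and 0.000242). Its partner Rrm1 fell by 0.44 in siCebpa and 0.45 in the double knockdown, with a log2 fold change of -0.33 ± 0.11 (0.0513) in siHnf4a. Tk1, the thymidine kinase of S phase, fell by 0.50, 0.61 and 0.48. Tyms, which makes thymidylate, fell by 0.41 in siHnf4a and 0.33 in the double knockdown, with a log2 fold change of -0.32 ± 0.11 (0.0671) in siCebpa.

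The knockdowns were then compared with each other. Between siHnf4a and siCebpa, 6 G1/S genes were lower in siHnf4a (Cdt1, Mcm2, Mcm3, Mcm4, Mcm5 and Mcm7) and 1 was higher (Ccne2), where 16.3% of all genes were lower and 14.9% higher. Mcm7 differed by -0.73 ± 0.07 on the log2 scale (adjusted p = 5.32e-05) and Mcm3 by -0.61 ± 0.10 (0.00166). In the G2/M set 2 genes were higher in siHnf4a than in siCebpa, Cenpf by 0.83 ± 0.28 (0.0428) and Prc1 by 0.69 ± 0.20 (0.0256), and 0 were lower. Without the siHnf4a or the siCebpa library of mouse 2 the count of 6 was 3, without mouse 2 it was 1, and the count of 2 ranged from 0 to 8 over the libraries and mice left out. The median log2 difference was 0.39 in the G2/M set and -0.08 in the G1/S set. Of the licensing genes, Mcm6 (0.09 ± 0.21, adjusted p = 0.768) and Cdc6 (-0.17 ± 0.21, 0.585) did not pass this test. Among 46 other mitosis genes 3 were higher and 3 lower in siHnf4a.

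The double knockdown was compared with each single knockdown. Against siHnf4a, 0 of the 44 genes passed the edgeR test, with 1 of 21 and 1 of 23 higher at an unadjusted p under 0.05, and DESeq2 also called 0 and 0. Of all genes tested, 0.00663% were lower and 0.0% higher, so hardly any gene of the series separated these groups. Against siCebpa, 6 G2/M genes were higher in the double knockdown (Ccnb2, Cenpf, Mki67, Nusap1, Prc1 and Ube2c), where 13.0% of all genes were higher and 14.3% lower. Prc1 was higher by 0.98 ± 0.20 (adjusted p = 0.00499) and Cenpf by 1.07 ± 0.27 (0.0155), each in 3 of 3 mice. For Cenpf the direction in mouse 1 rested on 11 estimated counts against 3 in siCebpa, and in mouse 2 on 53 against 41. Without the double-knockdown library of mouse 3 the count was 1, without the siCebpa library of mouse 3 it was 1, without mouse 2 it was 2 and without mouse 3 it was 1. Of the G1/S genes, Ccne2 was higher by 0.97 ± 0.23 (0.0106), and Mcm3 and Mcm7 had log2 differences of -0.43 ± 0.10 (0.0111) and -0.54 ± 0.07 (0.000299). Leaving out libraries or mice moved these counts to 0 to 1 higher and 1 to 5 lower.

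The fall in the double knockdown was smaller than the sum of the falls in the single ones. The interaction term (the log2 level of the double knockdown, less those of both single knockdowns, plus that of siCon) was above 0 in all 23 G2/M genes and passed the edgeR test in 19 of them, all but Aurkb, Birc5, Cdc20 and Kif20a. Of all genes tested, 1.99% passed above 0 and 1.83% below 0. In the G1/S set it was above 0 in all 21 genes as well, from 0.02 to 1.43, while 51.1% of all genes lay below 0. The median term was 1.73 in the G2/M set and 0.42 in the G1/S set, beside -0.01 over all genes. In the G1/S set 3 of 21 passed (Ccnd1, Mcm2 and Rrm2). For Ccnb1 the single changes sum to a log2 value far below the change of -1.97 that was measured, and the term was 2.53 ± 0.29 (adjusted p = 0.00311). Prc1 followed with 2.20 ± 0.27 (0.00453), and Ccnd1 had 1.32 ± 0.16 (0.00438). Put the other way, Ccnb1 changed by -2.30 with the Cebpa siRNA alone and by 0.23 ± 0.21 when it was added to the Hnf4a siRNA. The double knockdown also kept more Cebpa transcript than siCebpa, 94.2 against 30.0 CPM, and the part of this difference in the interaction was not tested. The interaction was called in 0 of 23 genes without the mouse block (0 at an unadjusted p under 0.05) and in 0 without mouse 2. It was called in 1 without mouse 3, 6 without the siHnf4a library of mouse 2, 9 without the siCon library of mouse 2 and 11 without the siCebpa library of mouse 3.

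**Figure D4:**
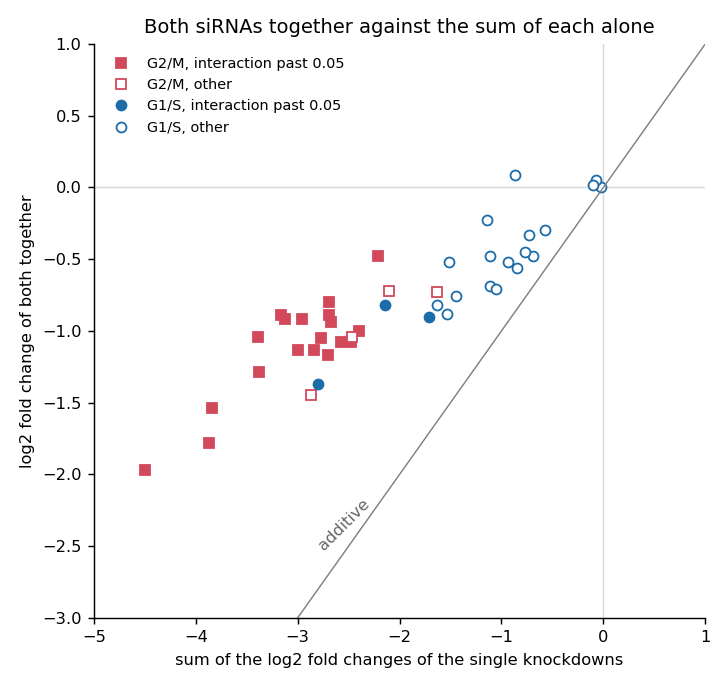
For each of the 44 genes, the log2 fold change of the double knockdown against siCon (vertical) and the sum of the log2 fold changes of the single knockdowns (horizontal), with the line on which they would be equal and filled symbols where the interaction passed an adjusted p of 0.05. All 44 genes lie above the line, Cdkn1a close to it, and Ccnb1 is the leftmost point.

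Genes of the same pathways outside the 44 were read from further lists. Of 46 other mitosis genes, 33 fell with siHnf4a, 32 with siCebpa and 26 with both siRNAs, where 15.5%, 8.11% and 15.6% of all genes fell, and 0 rose, with median log2 fold changes of -0.90, -1.06 and -0.73. Among them Anln, an actin-binding protein of the cleavage furrow, fell by 1.22, 1.63 and 1.23, and Kif18b, a microtubule motor, by 1.40, 1.86 and 0.96. Ttk, the checkpoint kinase MPS1, was at 1.11, 3.51 and 3.70 CPM in siCon and at 0.239 to 2.58 CPM in the treated libraries, and fell by 1.49, 2.15 and 1.09. The interaction passed in 13 of the 46, all above 0, with Ttk at 2.55 and Kif18b at 2.30.

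Other replication genes moved less uniformly. Of 44, 19 fell and 3 rose in siHnf4a, where 15.5% of all genes fell and 14.5% rose. With siCebpa 6 fell and 0 rose, where 8.11% and 8.73% of all genes did, and with both siRNAs 16 fell and 3 rose, where 15.6% and 13.8% did. Between siHnf4a and siCebpa 6 were higher and 6 lower in siHnf4a, where 14.9% of all genes were higher and 16.3% lower. Uhrf1, which guides maintenance of DNA methylation at the fork, fell by 1.57, 1.35 and 1.10 on the log2 scale, and the polymerase epsilon gene Pole by 1.20, 1.02 and 1.05. Rrm2b, the p53-inducible subunit of ribonucleotide reductase, rose in siHnf4a (0.79 ± 0.12) and the double knockdown (0.76 ± 0.12), opposite to Rrm2. It went from 7.66, 6.81 and 9.23 CPM in siCon to 13.0, 14.4 and 13.6 in siHnf4a and 12.6, 14.1 and 13.4 in the double knockdown, and neither group overlapped siCon.

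Regulators of G1 outside the 44 were mixed. Of 24 tested of 26, 7 fell and 2 rose in siHnf4a, 5 fell and 1 rose in siCebpa, and 5 fell and 2 rose in the double knockdown, beside the shares of all genes given for the replication list. Ccnd2 fell in all 3 comparisons, by 1.00, 0.38 and 0.82 on the log2 scale. Ccnd3, the third D-type cyclin, fell in siCebpa only (by 0.64) and was higher in siHnf4a than in siCebpa by 0.68 ± 0.12 (adjusted p = 0.00236). Skp2, the ubiquitin ligase subunit that removes the CDK inhibitor p27, was at 4.36, 4.56 and 4.93 CPM in siCon and 1.90, 1.76 and 2.57 in siCebpa. It fell by 1.17 ± 0.15 (0.00102) there, was at 4.54, 5.63 and 6.23 CPM in the double knockdown, and had an interaction term of 1.09 ± 0.21 (0.021). Cdk4, the partner of the D cyclins, fell in siHnf4a by 0.49 and in the double knockdown by 0.44 and had a log2 fold change of 0.09 ± 0.07 in siCebpa. Of 20 p53 target genes, 3 rose and 4 fell in siHnf4a, 4 rose and 1 fell in siCebpa, and 3 rose and 3 fell in the double knockdown. These counts lie near the shares of all genes that rose and fell in siHnf4a (14.5% and 15.5%) and the double knockdown (13.8% and 15.6%), and in siCebpa those shares were 8.73% and 8.11%. Trp53inp1, a stress-induced p53 target, rose by 0.86 ± 0.09 in siHnf4a and 0.93 ± 0.09 in the double knockdown.

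**Figure D5:**
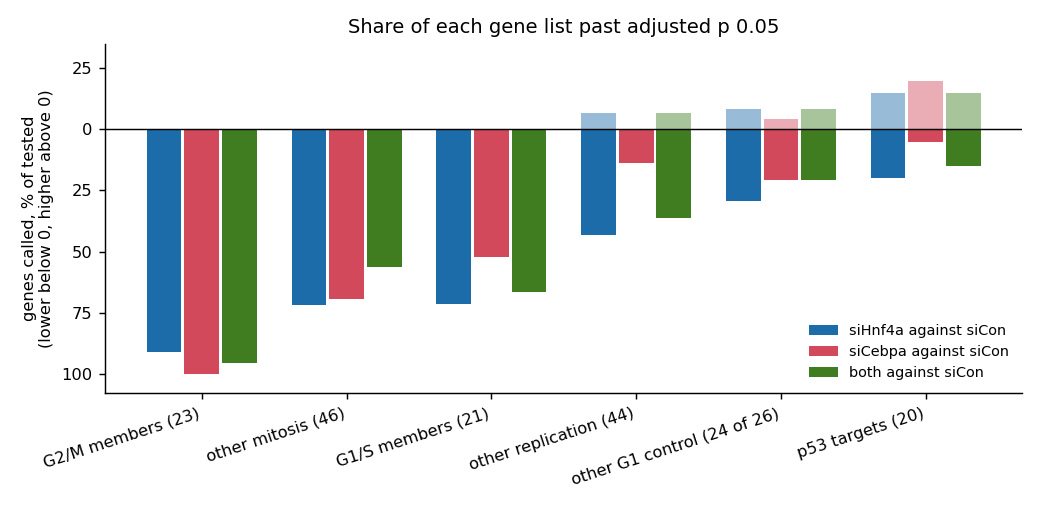
Share of each gene list past an adjusted p of 0.05 in each comparison with siCon, with genes that fell drawn downward from 0 in full colour and genes that rose drawn upward in pale colour (the number of genes stands after each name; "both" is the double knockdown). The mitosis lists and the G1/S genes hold falls only, while the other replication, G1 and p53 lists hold both directions.

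Markers of other liver cells were detected in all groups. The summed biliary, stellate and endothelial markers reached levels like that of the summed G2/M genes, which lay between 27.0 and 327 CPM. The summed Kupffer cell markers did so only through Cd68, and every other marker of that list lay far below the summed G2/M genes in each library. Summed hepatocyte markers (8 genes) were at 5497.5 to 16373.5 CPM, most of it Alb at 4189 to 13907 CPM, while Tat was at 3.23 to 72.5 CPM and Cyp2e1 at 0.172 to 3.37 CPM. Of the 8, 3 rose and 1 fell with siHnf4a, 0 rose and 2 fell with siCebpa, and 2 rose and 5 fell with both siRNAs. Summed stellate cell and fibroblast markers (10 genes) were at 146 to 176 CPM in siCon, 94.3 to 138 with siHnf4a, 81.6 to 167 with siCebpa and 86.5 to 146 with both siRNAs, and 3, 0 and 2 of 10 fell. Summed endothelial markers (10 genes) were at 94.2 to 126, 92.9 to 122, 71.3 to 102 and 79.0 to 102 CPM, and 1, 3 and 4 of 10 fell. Summed biliary markers (8 genes, 5 tested) were at 117 to 309, 109 to 214, 66.8 to 154 and 85.1 to 204 CPM, with Cftr at 0 in 11 of 12 libraries, and 4 of the 5 tested fell in each comparison, among them Krt19, Sox9 and Spp1. Summed Kupffer cell markers (12 genes, 9 tested) were at 82.4 to 261, 94.8 to 422, 57.8 to 370 and 92.9 to 354 CPM, nearly all of it Cd68, with Timd4 at 0 in 10 of 12 libraries, and 2, 2 and 4 of 9 fell. Lymphocyte and erythroid markers (8 genes) summed to 0.343 to 1.24 CPM. The marker counts stand beside 15.5%, 8.11% and 15.6% of all genes that fell and 14.5%, 8.73% and 13.8% that rose. Some were near these shares, among them the stellate count with both siRNAs and the endothelial count with siHnf4a. Stellate, biliary and endothelial sums were lower in mouse 1 than in mice 2 and 3 in every group, as the G2/M sum was. Hepatocyte sums, mostly Alb, were higher in mouse 1 than in mice 2 and 3 in every group. They were 11652.6, 9842.7 and 7894.2 CPM in siCon (mice 1 to 3), while Serpina1a was at 289, 439 and 410 CPM there. Kupffer sums, nearly all Cd68, were higher in mouse 1 in every group, but other markers of that list differed in their order. In siCon (mice 1 to 3) Adgre1 was at 1.71, 0.242 and 0.638 CPM and Clec4f at 0.198, 0.524 and 1.57. Which cells of the cultures carried the cycle transcripts, and the part of these markers in the result, was not tested.

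For 14 of the 44 genes at least 10% of the 31-base words of their transcripts also occur in another gene, so part of their counts may be shared, and whether counting used strand is not stated in the labels. Gins2 shares 66.2% with Gse1, which overlaps it on the other strand and was at 98.4 to 171 CPM, above Gins2 itself, so the level of Gins2 is uncertain. Ccnd1 (with LTO1), Ccne2 (Ints8), Ccna2 (Exosc9), Ube2c (Tnnc2), Kif20a (Cdc23) and Prc1 (Rccd1) also share words with an overlapping neighbour. Mcm7, Pcna, Rrm2, Tyms, Ccnb1, Plk1 and Cdc20 share words with other loci, mostly pseudogenes by name. Of these, Plk-ps1 was at 0.676 to 1.91 CPM and the others at no more than 0.129 CPM.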

How the data were processed

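For each of the 12 libraries the authors deposited expected counts (estimated, without normalisation) and TPM, which scales them by transcript length and depth. The tools were Trim Galore 0.6.4 and kallisto 0.4.6 on GRCm38.p6, per the submitters' processing notes. The annotation and strand setting of the counting are not stated in the labels. Of 55385 gene identifiers, 55144 matched GENCODE M21 with or without their version. Expected counts were rounded and fitted in edgeR 4.0.16 (R 4.3.3) with group and mouse as terms over all 12 libraries (6 residual degrees of freedom), after filterByExpr (15090 genes) and TMM scaling (factors 0.947 to 1.038). P-values of the two-sided quasi-likelihood test were adjusted by Benjamini-Hochberg over all tested genes (threshold 0.05), and "fell", "rose", "higher" and "lower" are used for genes that passed. CPM are rounded counts divided by the TMM-scaled library size.

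The replicate numbers were taken to pair the libraries by mouse, because the titles number the preparations 1 to 3 and the design text numbers 3 mice in the same way. Over 18 pairs of 1 mouse, deviations from the group means correlated with r from 0.16 to 0.68, and 12 of 12 libraries correlated best with their own mouse. All 44 genes are given. Named besides are Hnf4a, Cebpa and, of the other lists, called genes with the largest changes. Ccnd3, Cdk4 and the cell markers were chosen after their values were seen. The values of a further gene are not reported here. The genes and lists were chosen with earlier results of these data known. Alternatives were no block, DESeq2 1.42.0, RLE size factors, other filters (none, or at least 1 CPM in 3 libraries), only the compared groups, limma-trend (limma 3.58.1) on log2 TPM with pseudocounts of 1 and 0.1 (genes of at least 1 TPM), and leaving out each library or mouse. The test was checked on simulated data. Tables and figures used Python 3.11.15 with pandas 2.3.3 and matplotlib 3.10.9. Where cultures of 1 mouse are not stated to be separate, p-values measure the spread between these libraries.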

Additional observations from a re-analysis of the deposited data

Results flagged for a closer look

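For 22 of the 44 genes the effect of the Cebpa siRNA differed between cells with and without the Hnf4a siRNA, by the interaction term of the blocked edgeR model after Benjamini-Hochberg adjustment over all tested genes. Of all genes tested, 1.99% passed above 0 and 1.83% below 0. The term is the log2 change of the double knockdown against siHnf4a minus that of siCebpa against siCon, and it was above 0 in each of the 22. Among the G2/M genes it was 2.53 for Ccnb1, 2.35 for Cenpf, 2.29 for Bub1, 2.26 for Ccnb2, 2.20 for Prc1, 2.09 for Kif23 and for Plk1, and 2.04 for Ube2c. It was 1.89 for Bub1b, 1.87 for Mki67, 1.81 for Kif11, 1.73 for Nusap1, 1.72 for Ccna2 and for Foxm1, and 1.71 for Cenpe. The lowest values among the called G2/M genes were 1.54 for Top2a, 1.49 for Cdk1 and 1.40 for Aurka and for Tpx2. Of the G1/S genes, Rrm2 had 1.43, Ccnd1 1.32 and Mcm2 0.81. The calls of 6 of these 22 genes remained whichever single library was left out, and without the mouse block all 22 calls were lost. Cebpa itself had an interaction term of 1.49 ± 0.17 (SE, adjusted p = 0.00286 in the same edgeR test). The part of this in the terms of the 22 genes was not tested.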

How the results depend on the processing

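Without the replicate block for mouse, the direction of the called genes was kept but few calls were left. The genes that fell were then 2, 0 and 1 of G1/S and 0, 0 and 0 of G2/M in siHnf4a, siCebpa and the double knockdown, and the interaction was called in 0 and 0. Against siCebpa the unblocked counts were 0 higher and 1 lower (G1/S) and 0 higher (G2/M) for the double knockdown, and 0 higher, 1 lower and 0 higher for siHnf4a. DESeq2 with the replicate block called 4 G2/M and 2 G1/S genes higher in siHnf4a than in siCebpa. Limma-trend on log2(TPM + 1) called 10 G1/S genes lower in siHnf4a, 0 higher and 3 lower in siHnf4a against siCebpa, 1 lower in the double knockdown against siCebpa, where 3 G2/M genes were higher, and 5 G1/S and 7 G2/M interactions. With a pseudocount of 0.1 the counts that moved were 0 higher, 1 lower, 5 and 9, and 3 G2/M genes were higher in siHnf4a than in siCebpa. Without the filter on low counts 6 G1/S interactions, 10 G2/M genes higher in the double knockdown than in siCebpa, and 7 G2/M and 2 G1/S genes higher in siHnf4a than in siCebpa were called. The stricter filter gave 5 G1/S interactions. Fits on only the compared groups gave 7 G1/S genes lower in siCebpa, 1 G2/M gene higher in the double knockdown than in siCebpa, and 4 G2/M and 2 G1/S genes higher in siHnf4a than in siCebpa. RLE size factors moved no count by over 1.5 times. Leaving out single libraries or mice gave 7 to 16 (siHnf4a), 2 to 11 (siCebpa) and 5 to 15 (double knockdown) G1/S genes lower and 12 to 23, 11 to 23 and 3 to 22 of G2/M. Against siCebpa the ranges were 0 to 1 higher and 1 to 5 lower (G1/S) and 1 to 8 higher (G2/M) for the double knockdown, and 0 to 2, 1 to 6 and 0 to 8 for siHnf4a. The interaction ranged from 0 to 4 (G1/S) and 0 to 18 (G2/M). Without a given library, a group with 2 left rests on the spread of the others. Calls that remained without each single library numbered 26 of 36 in siHnf4a, 23 of 34 in siCebpa and 21 of 36 in the double knockdown. Signs changed only for Ccne2, Cdkn1a, E2f8, Gins2 and Pcna, where the gene was not called. Outside the libraries left out, these were Ccne2 in siHnf4a (-0.05 without the block, -0.01 with only the groups compared) and, in limma-trend with a pseudocount of 1 and of 0.1, Ccne2 in the double knockdown (-0.11, -0.18), Cdkn1a in siCebpa (-0.14, -0.14) and the double knockdown (-0.02, -0.02), and Gins2 in siCebpa (-0.11, -0.12) and the double knockdown (-0.01, -0.01). Cdkn1a was at -0.01 in the double knockdown under the stricter filter. With libraries or mice left out, log2 values ranged in siHnf4a from -0.10 to 0.23 (Ccne2) and -0.39 to 0.94 (E2f8), and in siCebpa from -0.03 to 0.08 (Cdkn1a), -0.04 to 0.25 (Gins2) and -0.10 to 0.01 (Pcna). In the double knockdown they ranged from -0.06 to 0.05 (Cdkn1a), -0.18 to 0.25 (Ccne2), -0.82 to 0.11 (E2f8), -0.06 to 0.11 (Gins2) and -0.02 to 0.09 (Pcna), and in the interaction from -0.04 to 0.08 (Cdkn1a), -0.61 to 1.11 (E2f8) and -0.07 to 0.26 (Gins2). The cause of these differences was not tested.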
